A study of Mus musculus with 2 samples.

Results

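Malat1, Neat1 and 8 genes that carry snoRNAs in their introns or belong to the same named family (Gas5, Snhg1, Snhg6, Snhg8, Snhg11, Snhg12, Snhg18 and Snhg20) were examined as 10 of the 18179 annotated genes with at least 1 read in mouse adrenal gland. The members were chosen by gene symbol, and the reads of all transcript models that the deposited tables give to a symbol were summed per gene. All 10 were found, 9 of them with reads in both libraries, and together they held 310 reads in replicate 1 and 481 reads in replicate 2. The material was adrenal gland of 10-day-old female mice of strain B6CASTF1/J, first-generation hybrids of the C57BL/6J and CAST strains, and was read by long-read RNA sequencing, in which 1 read is meant to follow 1 RNA molecule. There was 1 group of 2 libraries with no treatment and no second condition, so nothing below compares conditions. The library descriptions name animal 03 for both libraries, whereas the biosample descriptions name animal 03 for replicate 1 and animal 04 for replicate 2, so differences and SDs may be technical and may not cover the spread between animals.

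The libraries held 593165 and 772154 reads after removal of ERCC spike-ins (replicates 1 and 2), so that 1 read equalled 1.69 and 1.30 CPM (read counts scaled to the library total) and a gene with 0 reads could still reach 5.06 and 3.89 CPM (3 counts). The defining adrenal genes were present, with 6 of 6 cortex markers summing to 16860 and 20734 CPM and 5 of 5 medulla markers summing to 4884 and 5413 CPM. Markers of other tissues were also present and differed between the libraries: 5 of 5 liver genes summed to 7677 CPM in replicate 1 and 1238 CPM in replicate 2, and 5 of 5 kidney genes were at 0 reads in replicate 1 and summed to 627 CPM in replicate 2. Skeletal muscle genes (5 of 5) summed to 10296 and 3410 CPM and adipocyte genes (5 of 5) to 9185 and 13854 CPM. In bulk tissue, fewer cells of a type and less RNA per cell cannot be told apart.

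Small nucleolar RNAs (snoRNAs) guide chemical modification of ribosomal and spliceosomal RNA, box C/D snoRNAs directing methylation of riboses and H/ACA snoRNAs directing the conversion of uridine to pseudouridine. In mammals most are not transcribed on their own: they are cut out of introns of a host transcript after splicing, and in the noncoding hosts the joined exons encode no conserved protein. Several such hosts begin with a run of pyrimidines (a TOP start) like ribosomal protein mRNAs, and their spliced RNA is a known substrate of nonsense-mediated decay. Malat1 and Neat1 differ from them: they are neighbouring nuclear RNAs, mostly unspliced, whose long forms end in a stabilising triple helix in place of a poly(A) tail. Malat1 collects in nuclear speckles, and the long form of Neat1 is the scaffold of paraspeckles, while its short form ends at an internal poly(A) site.

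The starts are shown because a pyrimidine run is known from several of these genes. The windows below come from RefSeq (GRCm38.p6), run 5′ to 3′ from 30 bases before the start to 30 bases from it, and carry in capitals the longest run of C or T that begins with a C within 5 bases of the start, where it has at least 5 bases. RefSeq windows were matched for 8 of 10 members, with 2 starts for Gas5, and Snhg6 is shown by the first 30 bases of its annotated transcript Snhg6-203. The order is Gas5 (second start, chr1:161035136-161035195, plus strand), Snhg8 (chr3:123508307-123508366, minus), Snhg12 (chr4:132308648-132308707, plus), Snhg18 (chr15:32244633-32244692, minus), Snhg6 (chr1:9944089-9944118, minus), Snhg1 (chr19:8723457-8723516, plus), Snhg20 (chr11:117076753-117076812, plus), Snhg11 (chr2:158375683-158375742, plus), the first Gas5 start (chr1:161034571-161034630, plus) and Malat1 (chr19:5802643-5802702, minus).
Gas5: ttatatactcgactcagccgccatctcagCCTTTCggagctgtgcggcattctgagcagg
Snhg8: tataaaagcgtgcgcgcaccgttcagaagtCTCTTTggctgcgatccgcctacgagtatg
Snhg12: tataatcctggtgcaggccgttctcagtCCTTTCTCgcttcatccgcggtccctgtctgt
Snhg18: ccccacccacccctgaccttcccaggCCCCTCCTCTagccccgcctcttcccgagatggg
Snhg6: CTTTCTCggcagcgccgtagagcgcgagca
Snhg1: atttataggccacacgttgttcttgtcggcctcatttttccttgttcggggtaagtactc
Snhg20: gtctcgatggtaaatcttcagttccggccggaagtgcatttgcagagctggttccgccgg
Snhg11: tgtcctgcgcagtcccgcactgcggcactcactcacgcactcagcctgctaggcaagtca
Gas5 first start: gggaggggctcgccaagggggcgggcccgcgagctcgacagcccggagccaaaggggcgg
Malat1: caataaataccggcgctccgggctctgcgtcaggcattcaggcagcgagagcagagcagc

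A run of at least 5 bases lay within 5 bases of the RefSeq start in Gas5, Snhg8, Snhg12 and Snhg18, and at the first base of Snhg6-203. It was at the start base itself only in Gas5 (5 bases) and Snhg8 (6 bases) among the RefSeq windows. The most-read models of these genes are annotated to begin upstream of those starts, Gas5-210 at base 161035067 and Snhg8-201 at base 123508404 (minus strand). The runs thus describe RefSeq starts, and whether reads begin there was not tested. The same search found a run at the start base in 2.51% of 32851 RefSeq promoters and within 5 bases in 18.3%. In 217 promoters of protein-coding snoRNA hosts the shares were 4.15 and 23.0%. Snhg1, Snhg11, Snhg20, Malat1 and the first Gas5 start held no run of at least 5 bases that began with a C within 5 bases of the start. The Snhg1 window holds the pyrimidine run tttttcctt shortly after its start, which begins with a T and so was not counted.

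The snoRNAs themselves are shown as examples of what the introns hold, with box C (TGATGA) and box D (CTGA), or the ACA of the H/ACA class, in capitals. They are, in GENCODE M21 on mm10, Snord47 of Gas5 (chr1:161038082-161038158, plus), Gm23212 of Gas5 (chr1:161036682-161036741, plus), Snord87 of Snhg6 (chr1:9942463-9942549, minus), Snord123 of Snhg18 (chr15:32241853-32241923, minus) and Snora24 of Snhg8 (chr3:123507937-123508066, minus).
Snord47: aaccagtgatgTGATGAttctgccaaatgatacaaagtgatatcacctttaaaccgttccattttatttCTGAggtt
Gm23212: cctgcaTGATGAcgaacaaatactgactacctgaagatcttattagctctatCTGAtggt
Snord87: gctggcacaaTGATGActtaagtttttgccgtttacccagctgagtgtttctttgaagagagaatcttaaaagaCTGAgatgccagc
Snord123: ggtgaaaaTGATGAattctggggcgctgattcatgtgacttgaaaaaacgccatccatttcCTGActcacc
Snora24: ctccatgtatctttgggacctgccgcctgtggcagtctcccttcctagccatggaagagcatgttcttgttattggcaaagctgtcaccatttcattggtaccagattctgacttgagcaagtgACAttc

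The examples were picked from snoRNAs that hold these motifs, so their having them is no result. Box C within the first 25 bases together with box D within the last 15 was found in 20.3% of 1507 annotated snoRNA transcripts, and ACA ending 3 bases before the end in 18.3%. By the same search some snoRNAs of the members held neither. These were Gm22489 and Snord78 of Gas5, Gm25894 and Snord22 of Snhg1, Gm25187 and Gm25129 of Snhg11, and Snora44 of Snhg12. The annotation placed 9 snoRNA regions in introns of Gas5, 8 in Snhg1, 4 in Snhg12, 2 in Snhg11 and 1 each in Snhg6, Snhg8 and Snhg18. None lay on the strand and within the span of Snhg20, Malat1 or Neat1.

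Neat1 had the most reads of the 10 genes. Neat1 (ENSMUSG00000092274.3, chromosome 19, 5824708 to 5845478, minus strand) had 173 reads in replicate 1 and 228 in replicate 2, or 293 ± 2.56 CPM (SD, n = 2), and ranked 537 of all annotated genes with reads by mean CPM. Gas5 (ENSMUSG00000053332.13, chromosome 1, 161034422 to 161038539, plus strand), the host with most snoRNAs here, had 54 and 77 reads, or 95.4 ± 6.14 CPM. Exact Poisson 95% intervals of Neat1 lay above those of Gas5 in both libraries. Snhg20 (ENSMUSG00000086859.4, chromosome 11, 117076008 to 117078955, plus) had 25 and 52 reads, or 54.7 ± 17.8 CPM. Malat1 (ENSMUSG00000092341.3, chromosome 19, 5795690 to 5802672, minus) had 25 and 45 reads, or 50.2 ± 11.4 CPM, which placed it at rank 3692. Gas5 lay above Snhg20 beyond the intervals in replicate 1 but not in replicate 2, and the intervals of Snhg20 and Malat1 overlapped in both.

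The remaining 6 genes were low. Snhg8 (ENSMUSG00000104960.1, chromosome 3, 123507552 to 123508404, minus) had 14 and 30 reads, or 31.2 ± 10.8 CPM. Snhg18 (ENSMUSG00000096956.2, chromosome 15, 32240565 to 32244662, minus) had 6 and 30 reads, or 24.5 ± 20.3 CPM. Snhg1 (ENSMUSG00000108414.1, chromosome 19, 8723475 to 8726443, plus) had 5 and 10 reads. Below it came Snhg6 (ENSMUSG00000098234.7, chromosome 1, 9941959 to 9944118, minus) with 1 and 7 reads and Snhg12 (ENSMUSG00000086290.9, chromosome 4, 132308623 to 132311024, plus) with 4 and 2 reads. Snhg11 (ENSMUSG00000044349.15, chromosome 2, 158375638 to 158386145, plus), annotated as protein-coding, had 3 reads in replicate 1 and 0 in replicate 2, which allows up to 3.89 CPM there. Neighbours in the order of mean CPM from Snhg20 downward had overlapping intervals in both libraries, apart from Snhg18 and Snhg1 in replicate 2.

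**Figure D1:**
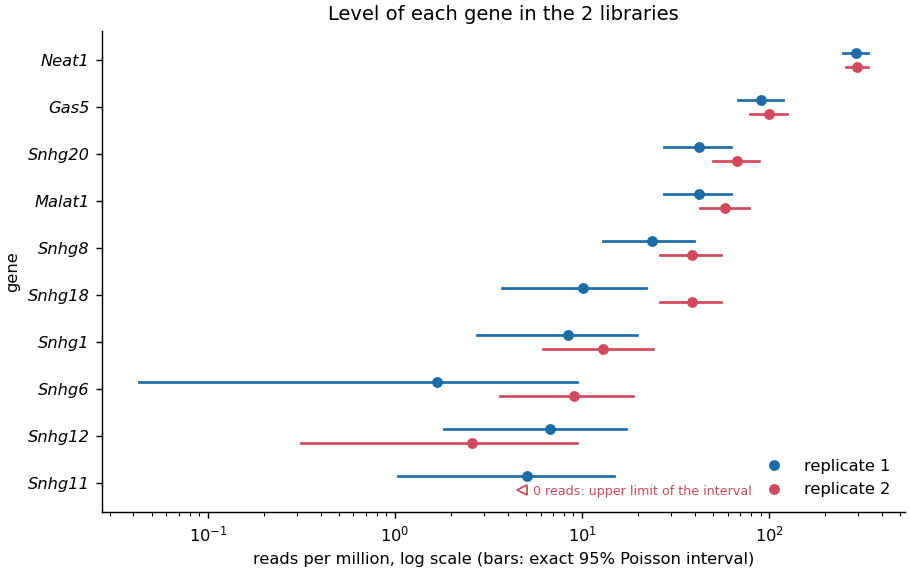
Level of each gene in CPM on a log axis, replicate 1 in blue and replicate 2 in red, with exact 95% Poisson intervals as bars. Neat1 stands above all others in both libraries, and only the intervals of Snhg18 are separate between the libraries.

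The order depends on whether a level is divided by length, since these RNAs differ widely in length. Counts of long reads were not divided by length here, as 1 read is meant to stand for 1 molecule. Whether very long RNAs, or RNAs without a poly(A) tail, were read as often as the hosts was not tested. The places of Neat1 and Malat1 among the genes are thus places by reads. Divided by the length of the most-read model, mean levels in CPM per kilobase were 171 for Gas5 (557 bases), 91.2 for Snhg20 (600 bases), 69.7 for Snhg8 (448 bases), 14.1 for Neat1 (20771 bases) and 7.19 for Malat1 (6983 bases). Neat1 was thus number 1 of 10 in CPM and number 6 in CPM per kilobase, and Malat1 was number 4 in CPM and number 9 in CPM per kilobase. For Neat1 the length of the long form, 20771 bases, was used for all reads. Nearly all of its spliced reads lay on models that end 3172 bases from the 5′ end. How many of its other reads end there is not known, as they carry no positions of their own in the deposit. A shorter length would give Neat1 a higher value per kilobase, so its place in that order depends on the length used.

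Between the libraries, 1 of the 7 members with enough reads to test was called: Snhg18 was higher in replicate 2. The test was a two-sided exact binomial test of each gene's reads against the library totals, over 10567 genes with at least 10 reads summed, called at a Benjamini-Hochberg adjusted p below 0.05 and at least 2-fold. It compares the reads of 2 libraries, not conditions, and takes in counting error only. Over all genes tested, 3.46% were called in either direction with 0.88% higher in replicate 2 and 2.58% higher in replicate 1. With no fold minimum the balance of calls turned, to 336 genes higher in replicate 1 and 381 higher in replicate 2. Snhg18 went from 10.1 to 38.9 CPM, a ratio of 3.84 (95% exact interval 1.57 to 11.3), a log2 difference of 1.85 and an adjusted p of 0.0229 by the exact binomial test. It was not called by edgeR's negative binomial exact test, which adds the spread between these libraries (adjusted p = 0.666). That spread was estimated over all genes from the same 2 libraries that the test compares. Differences between the libraries thus widen it, and the loss of the call does not decide whether Snhg18 differed. In the same libraries the kidney markers went from 0 to 627 CPM and the liver markers from 7677 to 1238 CPM, the muscle markers from 10296 to 3410 CPM and the adipocyte markers from 9185 to 13854 CPM, and their part in the Snhg18 difference was not tested.

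The other 6 tested members were not called. Their log2 differences, replicate 2 over replicate 1, were 0.69 for Snhg8 (adjusted p = 0.567, exact binomial test), 0.66 for Snhg20 (0.363), 0.55 for Snhg1 (0.975), 0.45 for Malat1 (0.676), 0.13 for Gas5 and 0.02 for Neat1 (both 1). All 7 tested members had the higher value in replicate 2, against 47.5% of all genes tested, and their median log2 difference was 0.55 against -0.04 over all genes. The 95% interval of the ratio ran from 0.827 to 1.24 for Neat1 and from 0.764 to 1.58 for Gas5, and from 0.830 to 2.35 for Malat1, so that a 2-fold difference of Malat1 lies within its interval. Snhg6, Snhg11 and Snhg12 had fewer than 10 reads and were not tested.

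**Figure D2:**
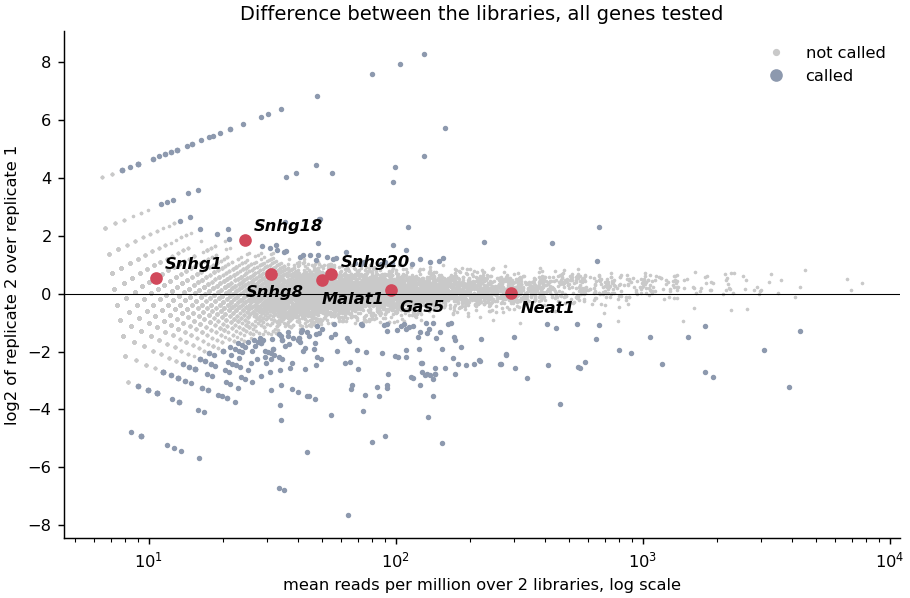
Log2 of replicate 2 over replicate 1 against mean CPM (log axis) for the 10567 genes tested, with called genes in dark grey-blue and the 7 tested members in red. Snhg18 is the member farthest from 0, at 1.85, and Neat1 the nearest, at 0.02.

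Genes of the same pathways were read from lists, by their counts and medians beside all genes. Over all 10567 genes tested, the median log2 difference was -0.04, 1690 genes (16.0%) had an unadjusted binomial p below 0.05 and edgeR called 124 (1.17%). The list of other noncoding hosts has 13 genes, among them Rmrp and Terc, which are noncoding RNAs but not snoRNA hosts. Of the 13, 9 had reads and 5 were tested, with a median log2 difference of 0.02, 0 called, 0 at an unadjusted binomial p below 0.05 and 0 called by edgeR. The highest of them were Snhg9 at 78.9 CPM, Snhg3 at 39.8 CPM and Snhg5 at 30.7 CPM. Of the proteins that bind snoRNAs, 9 of 10 were tested and 0 were called (2 at an unadjusted binomial p below 0.05, 0 by edgeR), with a median log2 difference of 0.12. The highest were Nop10 at 381 CPM, Snu13 at 122 CPM and Nhp2 at 94.5 CPM. Nop10 had an adjusted p of 4.11e-04 by the exact binomial test but a log2 difference of 0.57, short of the fold minimum. Of the paraspeckle proteins that assemble on Neat1, 10 of 10 were tested and 0 called (1 unadjusted, 0 by edgeR), with a median of 0.01, led by Hnrnpk at 552 CPM and the core pair Nono at 110 CPM and Sfpq at 91.0 CPM. Of the speckle proteins, 9 of 10 were tested and 0 called (1 unadjusted, 0 by edgeR), with a median of -0.31, led by Srsf2 at 307 CPM and Srsf3 at 177 CPM.

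Of 10 factors of nonsense-mediated decay, 8 were tested and 0 were called (0 unadjusted, 0 by edgeR), and their median log2 difference was -0.93. By value, 1 of the 8 was higher in replicate 2, against 47.5% of all genes tested. Upf1, the helicase of that pathway, had 91.0 and 89.4 CPM. Among 12 other long noncoding RNAs 6 were tested and 1 was called, the imprinted H19, with 932 and 159 CPM and a log2 difference of -2.54. Of the 6, 2 had an unadjusted binomial p below 0.05 and 1 was called by edgeR. Meg3 had an adjusted p of 0.00209 by the exact binomial test but a log2 difference of -0.90, short of the fold minimum. Of 257 protein-coding hosts 176 were tested, with a median log2 difference of 0.01. In that list 3 were called, all higher in replicate 1 (Trrap, Slit3 and Gm20388), and 0 were called by edgeR. An unadjusted binomial p below 0.05 was found for 38 of the 176 (21.6%), against 16.0% of all genes tested.

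The 10 genes differed in how they were spliced. Every read of Malat1, 25 of 25 and 45 of 45, lay on the annotated single-exon transcript Malat1-201 (exact 95% lower limits 86.3 and 92.1%). Neat1 had 152 of 173 and 196 of 228 reads on its annotated single-exon transcript Neat1-201, or 87.9 and 86.0% (86.9 ± 1.34%, SD, n = 2). Gas5 had 0 single-exon reads among 54 and 77, which allows shares up to 6.60 and 4.68% (exact 95% limits). The 8 genes other than Malat1 and Neat1 together had 3 of 112 and 9 of 208 reads on single-exon models, or 2.68 and 4.33%, and 5 of the 9 were from Snhg20, which has no annotated snoRNA. Over the 4880 genes that had 20 or more reads in both libraries, the median share was 6.06% in replicate 1 and 4.05% in replicate 2. In 163 of those genes (3.34%) every read was single-exon in both libraries, as in Malat1, and in 330 (6.76%) none was in either, as in Gas5. These are descriptions: the annotation itself gives Malat1 and Neat1 single-exon transcripts.

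The single-exon reads of these 8 genes were few and of different kinds. In Snhg20 they were 0 of 25 and 5 of 52 reads, all on annotated Snhg20-203, which runs unspliced through the gene. Snhg8 had 1 of 14 and 2 of 30, all on annotated Snhg8-202, which runs through the Snora24 intron. Snhg18 had 0 of 6 and 2 of 30, on an unannotated model of 160 bases within the last exon of Snhg18-201. Snhg11 had 2 of 3, on an unannotated model at the 3′ end of the gene. Snhg1, Snhg6 and Snhg12 had none among 15, 8 and 6 reads.

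The single-exon share was tested between libraries for Neat1, Gas5, Snhg20 and Malat1, the members with at least 20 reads in each. With Fisher's exact test, adjusted over 4880 genes and with a minimum difference of 10 percentage points, 0 of the 4 were called, and 0 had an unadjusted p below 0.05. Over all genes 6 were called, or 0.123%. The difference for Snhg20 was 9.62 points (unadjusted p = 0.168, exact) and that for Neat1 was -1.90 points (unadjusted p = 0.656, exact).

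**Figure D3:**
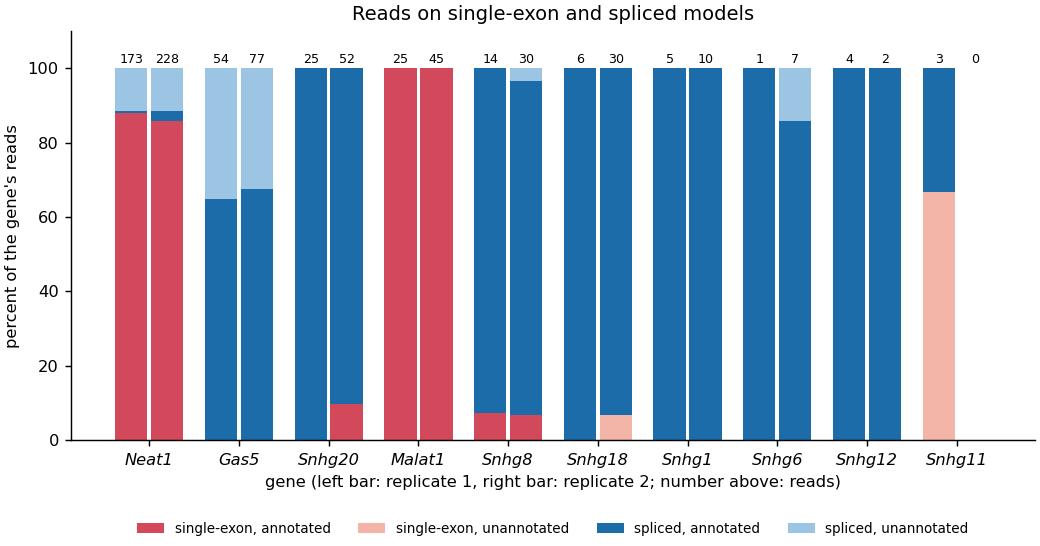
Share of each gene's reads on annotated and unannotated, single-exon and spliced models, with replicate 1 as the left bar, replicate 2 as the right bar and the number of reads above. Malat1 is wholly single-exon, Neat1 mostly so, and Gas5 is spliced in every read, with 19 of 54 and 25 of 77 reads on unannotated models.

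The spliced reads of Neat1 traced its short form. Neat1 had 21 and 32 reads on spliced models. All 21 in replicate 1 and 31 of 32 in replicate 2 lay on models that end at base 5842307, the end of annotated Neat1-202, 3172 bases from the 5′ end of the gene. A 143-base intron (chr19:5844435-5844577) was removed in 20 and 22 of these reads, and a 166-base intron (chr19:5844759-5844924) in 4 and 15. The most-read spliced model, unannotated and with 2 exons, lacked the 143-base intron (17 and 14 reads). An unannotated model of 3 exons lacked both (3 and 8 reads), and Neat1-202, which lacks the 166-base intron, had 1 and 6 reads. The reads given to Neat1-201 carry no positions of their own in the deposit, so how many of them end at 5842307 is not known from these files.

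The ends are shown because that of the short form, unlike that of the long form, carries a poly(A) signal. They are the last 60 bases of Neat1-202 (chr19:5842307-5842366), Neat1-201 (chr19:5824708-5824767) and Malat1-201 (chr19:5795690-5795749), all on the minus strand of mm10 and written 5′ to 3′, with AATAAA in capitals.
Neat1-202: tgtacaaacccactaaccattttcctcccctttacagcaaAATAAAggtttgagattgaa
Neat1-201: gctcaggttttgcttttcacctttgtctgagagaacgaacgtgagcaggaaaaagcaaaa
Malat1-201: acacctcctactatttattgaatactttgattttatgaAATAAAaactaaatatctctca

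The signal began 20 bases before the end of Neat1-202 and 22 bases before the end of Malat1-201, and those 6 letters were not in the last 60 bases of Neat1-201. These are ends of annotated models. Whether Malat1 RNA ends where Malat1-201 does was not tested, so the signal there does not show that Malat1 carries a poly(A) tail. They occur in the last 60 bases of 31.1% of 9100 annotated lincRNA transcripts and of 27.2% of all 141515 transcripts.

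Short genes annotated within Neat1 also held reads. Within the first bases of Neat1, on the same strand, lie 3 short annotated genes of type misc_RNA, and the deposited tables give reads to each. Gm28006 (chromosome 19, 5844916 to 5845037), whose 122 bases equal bases 442 to 563 of Neat1-201, had 169 and 243 reads beside the 173 and 228 of Neat1. Gm27505 had 2 and 9 reads and Gm27533 had 6 and 7. With these genes counted in, Neat1 reached 350 and 487 reads, or 610 ± 28.7 CPM in place of 293 ± 2.56 CPM. The sequence of Gm28006 (minus strand, 5′ to 3′) is shown because a full-length Neat1 RNA contains it. Whether the reads given to these genes are Neat1 molecules was not tested.
Gm28006: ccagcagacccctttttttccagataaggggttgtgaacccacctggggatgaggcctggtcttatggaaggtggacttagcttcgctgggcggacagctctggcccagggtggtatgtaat

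For the other members such nested genes added little. Malat1 gained 6 and 0 reads from Gm27694, and Gas5, Snhg8, Snhg12 and Snhg18 gained at most 2 reads in a library from the snoRNAs in their own introns.

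**Figure D4:**
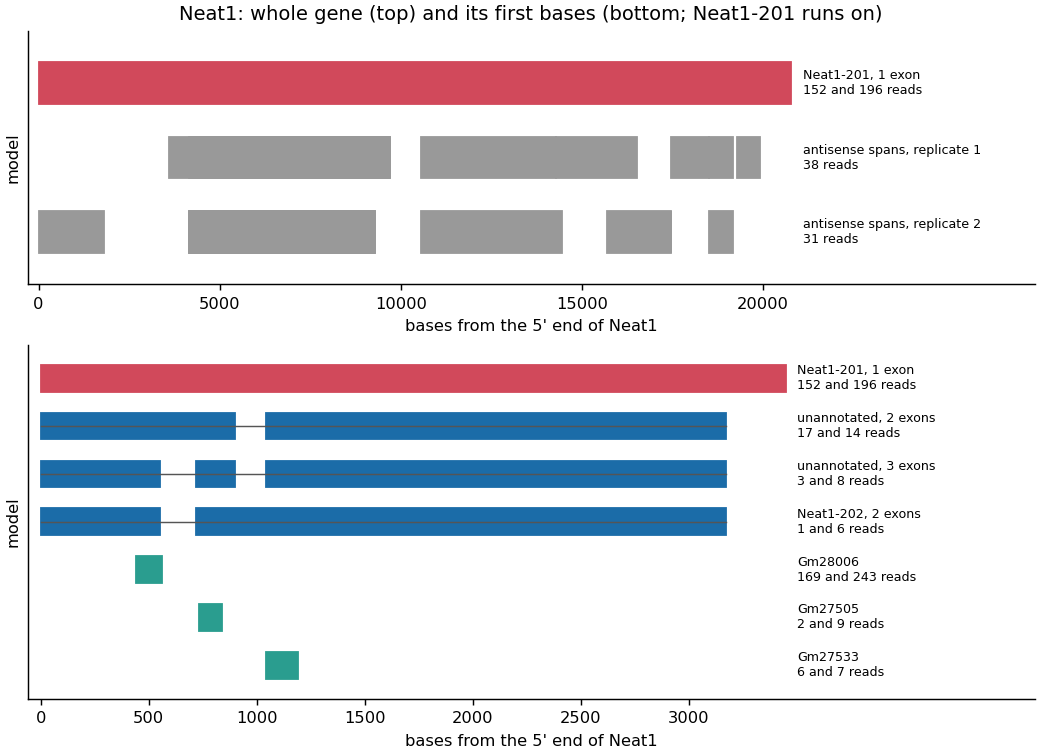
Models on Neat1 by distance in bases from its 5′ end, with the whole gene above and its first bases below, in red Neat1-201, in blue the 3 most-read spliced models, in green the nested annotated genes and in grey the spans of unannotated antisense models (1 of replicate 2 reaches past the 5′ end and is drawn to it). The spliced models share 1 end, 3172 bases from the 5′ end.

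Gas5 showed the widest choice of spliced forms. Its reads fell on 30 models over both libraries, 7 of them with reads in both, and many of the 30 held 1 read in all. Gas5 also had the most spliced reads of the members, 54 and 77, against 25 and 47 for Snhg20. The number of models was not adjusted for the number of reads. Gas5-210 (11 exons) had 13 and 25 reads, Gas5-224 (12 exons) had 18 and 18, and an unannotated model of 6 exons had 4 and 8. Annotated models held 64.8 and 67.5% of the Gas5 reads. Of the 19 and 25 reads on unannotated models, 10 and 20 lay on models that begin within 5 bases from the start of Gas5-224 (base 161035163), where the second RefSeq start with its pyrimidine run also lies (base 161035166).

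Exon 7 of Gas5-224 was the exon most often skipped. It is 41 bases long (chr1:161037124-161037164) and is part of 2 of 25 annotated Gas5 transcripts.
Gas5 exon 7: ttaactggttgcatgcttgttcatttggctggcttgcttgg
It was included in 20 of 46 reads that spliced across this place in replicate 1 (43.5%, exact 95% interval 28.9 to 58.9) and in 25 of 63 in replicate 2 (39.7%, 27.6 to 52.8). Exons 2 to 4 were included in 97.8 to 100% of such reads and exon 11 in all of them. Exons 5, 6, 8, 9 and 10 lay between 80.4 and 91.7%. The 6-exon model accounts for part of the skipping, since it joins exon 4 directly to exon 11. Its junction is shown with exon 4 in lower case and exon 11 in capitals (15 bases each).
Gas5 exons 4 and 11: cagagcgagcgcaatGGCTCCTGTGACAAG
That joined intron holds 5 of the 9 snoRNA regions, whereas in Gas5-224 each snoRNA has an intron of its own. In all, 10 of 54 and 11 of 77 Gas5 reads removed an intron with at least 2 snoRNAs.

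Most snoRNA regions had been spliced out of the host reads. Counting each read once for each snoRNA region it spans, Gas5 had the region in an intron in 443 of 461 cases in replicate 1 (96.1%) and 619 of 671 in replicate 2 (92.3%). Over all 7 members with such regions the shares were 96.5 and 93.1%, and over 324 regions of protein-coding hosts 97.5 and 97.4%. Gas5 gave most of the members' cases. Without Gas5 the members' shares were 98.7% (76 of 77) in replicate 1 and 96.7% (146 of 151) in replicate 2. Among 149 regions of protein-coding hosts with at least 20 such reads in each library the median was 100% in both. Cases of 1 read are not independent of each other, so no test was made.

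By value, single snoRNAs of Gas5 stayed in the RNA at different shares, which were not tested against each other. Snord78 was in an exon most often, in 7 of 53 and 12 of 75 reads, leaving 86.8 and 84.0% spliced out (exact 95% intervals 74.7 to 94.5 and 73.7 to 91.4). Gm22357 followed with 92.0 and 86.5% spliced out. Snord80 had 100 and 97.4%, and the other 6 lay between 90.7 and 100%. The intervals of Snord78 overlapped those of the other 8 regions in both libraries. An unannotated model of 10 exons (2 and 4 reads) fuses exons 6 to 8 with the introns between them and so keeps Snord78. Per read, 44 of 54 (81.5%, 68.6 to 90.7) and 61 of 77 (79.2%, 68.5 to 87.6) Gas5 reads had no snoRNA left in an exon.

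**Figure D5:**
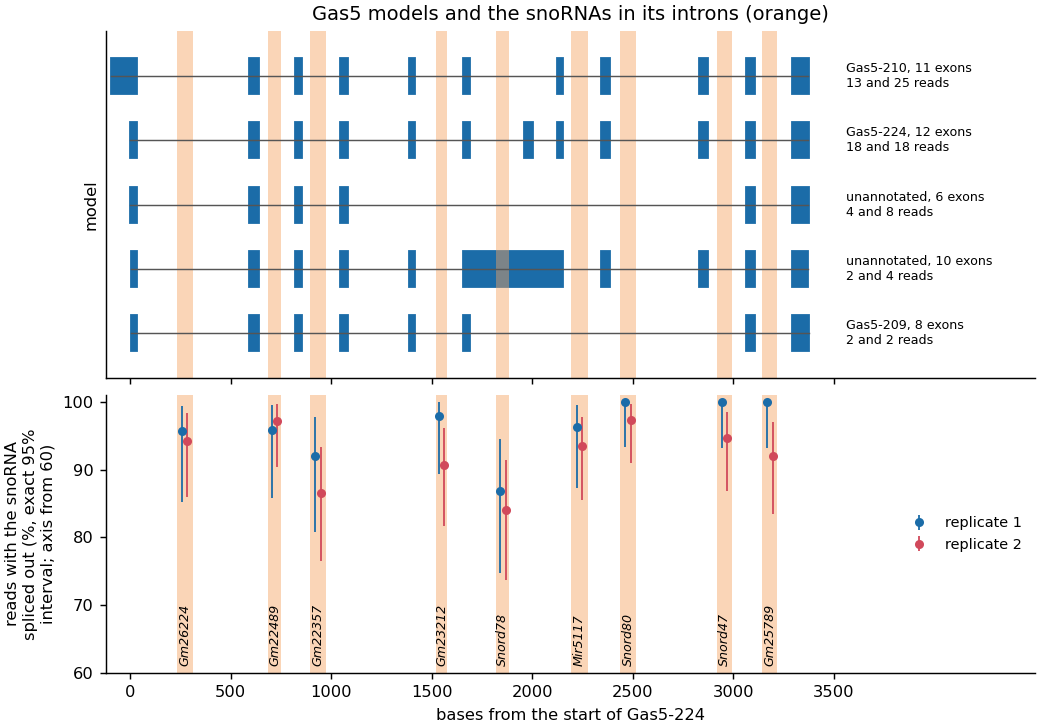
The 5 most-read Gas5 models by distance in bases from the start of Gas5-224 (top, exons as boxes, snoRNA regions in orange) and the percent of spanning reads with each snoRNA spliced out in each library (bottom, exact 95% intervals, axis from 60%). The lowest values are those of Snord78, 86.8 and 84.0%.

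The other hosts held fewer regions and fewer reads. In Snhg1, the host of 8 regions, 38 of 38 and 78 of 78 cases with the region wholly in an intron or exon were spliced out. A further 2 reads in each library overlapped Gm25855 in part, and with any overlap counted as in an exon the share was 96.2% as a mean of the 2 libraries. Its main form Snhg1-211 (10 exons) had 3 and 8 reads and Snhg1-207 (9 exons) had 2 and 2. Snhg18 had Snord123 spliced out in 6 of 6 and 28 of 28 reads, all on the 2-exon Snhg18-201. Snhg8 had Snora24 spliced out in 13 of 14 and 27 of 30 reads (92.9 and 90.0%), all on Snhg8-201. An unannotated Snhg8 model of 2 exons had 0 and 1 reads. In Snhg6, Snord87 was spliced out of 1 of 1 and 7 of 7 reads, on Snhg6-203 (0 and 4 reads), Snhg6-204 (1 and 1), Snhg6-205 (0 and 1) and an unannotated model (0 and 1). In Snhg12, 16 of 16 and 6 of 8 cases were spliced out, and the 2 exceptions were Snora61 and Snord99 in 1 read of Snhg12-201 (0 and 1 reads). The other Snhg12 reads lay on Snhg12-206 (2 and 1) and Snhg12-202 (2 and 0). In Snhg11, 1 read of Snhg11-205 spliced out both of its regions. Snhg20 has no annotated snoRNA and was nonetheless spliced in most reads, on Snhg20-202 (2 exons, 24 and 47 reads), with 1 and 0 reads on Snhg20-205 (3 exons).

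A pair of models began inside a snoRNA region. An unannotated model of 5 exons with 3 reads in replicate 1 and 0 in replicate 2 starts at base 161036695, 13 bases into Gm23212, whose sequence is given above. The annotated Snhg1-207, with 2 reads in each library, starts at base 8724005, 12 bases into Gm25855. Whether these are fragments or starts was not tested.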

How the data were processed

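Long-read RNA was measured in 2 libraries of 1 group. Per the labels and the file headers, the authors deposited for each library a table of counts, whole reads per TALON transcript model with no normalization, and model coordinates on mm10 with GENCODE M21; the number of exons and the length of each model are further deposited columns. For the aligner, its version and the way read strand was set: not given in the sources used here. Of the members' 82 annotated transcripts, 82 had the same exons in the reference annotation. Counts were summed per gene, and ERCC spike-ins (2.23 and 2.09% of reads) were left out. CPM used the remaining totals. SIRV spike-ins named in the labels were not analysed here.

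Genes with 10 or more reads summed entered the exact binomial test (pseudocount 0.5 reads for log2 values), and genes with 20 or more reads in each library entered Fisher's exact test, with Benjamini-Hochberg adjustment over all genes tested. The binomial p is the smaller tail doubled. This definition was set after both it and the sum of outcomes no more probable had been computed on these data. A snoRNA counted as spliced out when it lay wholly in an intron of a model, and as in an exon when wholly within one. Intervals are exact (Clopper-Pearson or Poisson, 95%) and take in no more than counting error, as the reads carry no molecular identifiers in these files. The 10 members, the gene lists and the tests were chosen with earlier results of these data known. Named are all members, their 3 most-read models and every model with at least 10% of a member's reads; of each list, up to the 3 highest by mean CPM and called genes. Nested genes, antisense models, the exons of Gas5, the shared end of Neat1 models and the retained snoRNAs were looked at after their values were seen. The tests were tried on simulated data. Tools were Python 3.11.15, SciPy 1.17.1, R 4.3.3, edgeR 4.0.16 and DESeq2 1.42.0. Other settings were tried for the levels, the single-exon shares and the spliced-out shares. None was tried for the Gas5 exons, the Neat1 introns and end, the antisense ratios, the start runs or the order per kilobase.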

Additional observations from a re-analysis of the deposited data

Results flagged for a closer look

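Reads outside the members' own models stood above the 3 counts that a count of 0 allows in both libraries at 5 places. On the strand of Neat1, the nested Gm28006 held 412 reads over both libraries and the nested Gm27533 held 13. Together with Gm27505 (2 and 9 reads) they raise the level of Neat1 from 293 to 610 CPM when counted in.

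Unannotated antisense models, which lie on the opposite strand of a gene, held 131 reads over Malat1, 69 over Neat1 and 51 over Snhg11. Over Malat1 they had 41 and 90 reads (replicates 1 and 2), or 1.64 and 2 times the reads of Malat1 itself. The main one was single-exon, began at base 5798022 of chromosome 19 in both libraries and held 28 and 76 reads. More antisense than own reads in both libraries were found in 13 of 4880 genes with at least 20 reads in each (0.266%), and the median ratio over those genes was 0.00449 and 0.00381. Over Snhg11 the antisense models had 36 and 15 reads beside 3 and 0 of the gene. Over Neat1 they had 38 and 31 reads beside 173 and 228. How the strand of a read was set is not given in the sources used here, and whether these reads come from the opposite strand was not tested.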

How the results depend on the processing

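No paired analysis was possible because there is 1 group of 2 libraries. The call of Snhg18 held in 10 of the 11 settings that tested it and was lost with edgeR's negative binomial exact test (log2 1.96, adjusted p = 0.666); over the 11 settings its adjusted p ran from 0.0177 to 0.666. Members called were 0, in place of 1, with a minimum of 50 reads summed, where Snhg18 is not tested, and with edgeR. Genes called over the whole table were 366, against 191 with the minimum of 50 reads, 124 with edgeR and 717 with no fold minimum (336 higher in replicate 1 and 381 in replicate 2, in place of 273 and 93). A pair of settings was chosen after the data were seen: the other definition of the two-sided binomial p gave 410 genes and called Snhg18, and counting nested genes with their member gave 366 genes. For the single-exon share between libraries, 0 members were called in each setting run. The genes called were 6, against 15 with no minimum difference, 13 with models of at least 2 reads and 109 without genomic models. Genomic is 1 of the deposited classes of unannotated models, and unannotated spliced models of other classes were kept. The single-exon share of all member reads, 55.0% as a mean of 2 libraries, was 62.2% with annotated models alone and 60.9% with models of at least 500 bases, which moved Snhg8 from 6.90 to 83.3% since Snhg8-201 is shorter, and 52.0 and 58.1% without replicate 1 and without replicate 2. With models of at least 2 reads Snhg8 was at 3.45%, and with annotated models alone Neat1 went from 86.9 to 98.2%. The share of snoRNA regions spliced out, 94.8%, was 97.7% with models of at least 2 reads, and 93.1 and 96.5% without replicate 1 and without replicate 2. Depth limits the low members most: Snhg6, Snhg11 and Snhg12 have fewer than 10 reads. No tested member changed the sign of its log2 difference in the settings run. The median over all genes, -0.04, turned to 0.05 with the minimum of 50 reads, 0.01 with edgeR, 0.02 with spliced and 0.10 with annotated models alone.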
